A study of Homo sapiens with 27 samples.

Results

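The regions described are the 1 Mb bins of chromosomes 1, 2, 3 and 5 of LN-229, a human glioblastoma cell line, in which MGMT-transfected cells and wild-type (WT) cells differed in the density of mapped sites over whole chromosome stretches. A bin was a member when it held at least 25% of its chromosome's median number of solvent sites, which leaves out centromere gaps and a few further bins. There were 833 member bins among 2839 on chromosomes 1 to 22 and X: 222 on chromosome 1, 237 on chromosome 2, 196 on chromosome 3 and 178 on chromosome 5. Sites at all 4 bases with a deposited score of at least 30 were counted. The members were chosen by the difference between MGMT and WT under solvent, under temozolomide (TMZ) and in naked DNA, so these differences are given as a description. Where a fit's calls on them are counted, the count supports nothing.

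The data are O6-MeG-seq, which enriches DNA fragments that contain O6-methylguanine by immunoprecipitation and reads the modified position from where a polymerase stops. One line was transfected with MGMT, and the series text calls its transfection control WT. Cells of each line received 1 mM TMZ or 1% DMSO as solvent, as 1 exposure or as 3 exposures that were 4 h apart. Extraction followed 24 h after exposure began, with 3 libraries in each of these 8 groups. Naked DNA, which was exposed to 1 mM TMZ outside cells, gave 1 library each from WT (non-transfected) cells (replicate 1), WT cells (replicate 2) and MGMT-transfected cells (replicate 3). The series text calls the 3 replicates biological. Neither it nor the labels say whether the MGMT line is 1 clone or which promoter drives the gene. With 1 naked library per line, a naked DNA difference has no replicate.

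TMZ adds methyl groups to DNA, and the one at the O6 position of guanine is its most toxic product because it pairs with thymine. MGMT takes that methyl group off guanine, and mismatch repair proteins act on the mispairs that are left. Cancer lines carry stretches of chromosomes in more or fewer copies than their relatives. At an equal number of lesions per copy, such a stretch gives more or fewer DNA fragments. After enrichment for a lesion, the number of lesions per copy counts as well, so site density alone does not give the number of copies.

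Each value below is a number of distinct marked positions, and 250 bases upstream of a gene show what that is. Marks were counted only for listed genes with a single promoter entry. Among these, the stretches shown are those with the most marked positions. PMS1, a mismatch repair gene on chromosome 2, stands for segments that were higher in MGMT. PDGFRB, a growth factor receptor gene on chromosome 5, stands for segments that were lower. The stretches are RefSeq sequences of GRCh38.p14, written 5′ to 3′ on the gene's strand. Capitals mark a G that any TMZ or naked DNA library listed, or the C opposite to such a G on the other strand.

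PMS1 upstream, chr2:189784200-189784449, plus strand: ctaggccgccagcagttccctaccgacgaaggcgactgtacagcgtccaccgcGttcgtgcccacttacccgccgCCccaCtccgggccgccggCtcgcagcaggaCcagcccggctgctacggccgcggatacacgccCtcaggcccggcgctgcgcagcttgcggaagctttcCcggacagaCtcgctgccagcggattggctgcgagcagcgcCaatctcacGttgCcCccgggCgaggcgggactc

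PDGFRB upstream, chr5:150155846-150156095, minus strand: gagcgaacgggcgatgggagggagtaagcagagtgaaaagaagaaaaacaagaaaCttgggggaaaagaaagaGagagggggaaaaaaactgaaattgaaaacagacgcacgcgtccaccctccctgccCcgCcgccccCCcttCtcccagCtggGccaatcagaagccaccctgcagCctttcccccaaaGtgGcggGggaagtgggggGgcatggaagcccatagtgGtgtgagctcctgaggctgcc

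In the PMS1 stretch 14 of 178 G or C positions were marked, and the libraries held 7 G sites under TMZ in WT, 6 in MGMT, 0 under solvent and 4 in naked DNA. In the PDGFRB stretch 15 of 146 were marked, with 6, 4, 3 and 7 sites. With so few sites in a stretch, the lines were compared over bins of 1 Mb, not over promoters. The median member bin held 221 to 4416 sites per library. Over 10393 RefSeq promoters the base of the deposited site equalled the reference base at 162929 of 162929 sites.

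The libraries held 617870 to 4188663 sites with the minimum score under solvent, 1914780 to 9008402 under TMZ and 7738948 to 12838400 in naked DNA. Both solvent libraries of replicate 1 given 1 time stood apart: they were the shallowest, with 613981 sites on chromosomes 1 to 22 and X in WT and 899060 in MGMT. G made up 43.5% of sites in the MGMT library and 27.7% in the WT library, against 19.0% to 23.6% in the other 10 solvent libraries and 32.5% to 64.1% in TMZ libraries. The MGMT value was above that of the MGMT TMZ library of the same number (37.3%) and goes against the solvent label. The slope on the solvent difference is therefore also given without this pair. So are the tests by segment that use solvent libraries, over the 18 segments with a shared shift. The tests over all 26 segments were not repeated without it. Both libraries of this pair also shared sites at A, C and T with other libraries of replicate 1. The MGMT library had 21.6% of them in common with the MGMT TMZ library of the same number and 13.5% with naked DNA of replicate 1, and the WT library had 14.6% in common with naked DNA of replicate 1. The WT library also shared 9.42% with the WT TMZ library of its number. In all other pairs of libraries the share was at most 4.68%, which is no background level: both shallow libraries shared 0.12% with each other. The 4.68% was that of the WT with the MGMT solvent library of replicate 1 given 3 times. That WT library shared 3.39% with the WT solvent library of replicate 2 given 1 time. The MGMT TMZ library of replicate 1 given 1 time shared 3.41% with naked DNA of replicate 1. The cell line was checked at CDKN2A on chromosome 9, a tumour suppressor gene that LN-229 is known to lack: 26 of 27 libraries had 0 sites in the gene and 1 had 1 site, where 6.09 to 127 per library would be found at mean density.

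By arm, site density was higher in MGMT on both arms of chromosomes 1 and 2, lower on 5q, and near that of WT over most of chromosome 3 and all of 5p. The median bin differed by 0.31 (log2, MGMT minus WT) on 1p under solvent, 0.35 under TMZ and 0.36 in naked DNA. On 2p the medians were 0.29, 0.35 and 0.34. The q arms of these chromosomes were less raised, with 0.17, 0.21 and 0.16 on 1q and 0.20, 0.23 and 0.24 on 2q. On 5q the medians were -0.18, -0.10 and -0.19, so the TMZ difference was the smallest of the 3. Medians were -0.045 under solvent on 3p, -0.035 on 3q and -0.00024 on 5p, beside -0.033 over the 1853 bins of the other autosomes. Both naked WT libraries, replicate 2 against replicate 1, differed by at most 0.016 in size on every arm. The DNA came from bulk cells, so a difference in every cell and a larger one in part of the cells cannot be told apart.

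These differences did not spread evenly over the arms. In limma's fit over all 2839 bins, 356 of 833 member bins were called higher in MGMT and 222 lower under solvent (adjusted p at or below 0.05), where 22.3% and 19.5% of all bins, and 41.8% in either direction, were called. Under TMZ 343 were called higher and 136 lower, where 21.7% and 14.5% of all bins, and 36.2% in either direction, were called. The 6 MGMT libraries lay wholly above the 6 WT libraries in 206 member bins under solvent (12.6% of all bins) and wholly below in 85 (6.59%). Under TMZ this held for 277 (17.6%) and 79 (7.82%). The 136 lower calls under TMZ were 68 without replicate 2 and 62 without replicate 3. The solvent counts were 359 higher and 221 lower without replicate 1, 323 and 165 without replicate 2, and 297 and 148 without replicate 3. The contrast chose the members, so nothing is read from these counts. Of the chromosomes outside the 4, the median solvent difference was largest on X (0.41), 15 (0.32) and 20 (-0.30).

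Dividing each arm where the solvent difference changed level gave 26 segments, lettered from the start of the arm. A shift was called shared where the mean bin difference was at least 0.1 in size and of the same sign under solvent, under TMZ and in naked DNA. This held for 18 segments with 509 of the 833 bins (61.1%) and 3715 protein-coding genes: 13 segments with 358 bins were higher in MGMT and 5 with 151 bins were lower. The 18 were kept for the size of these shifts, so nothing is read from the lack of overlap between the 6 MGMT and 6 WT libraries: over all 26 segments the lines did not overlap in 22 under solvent (84.6%), in 21 under TMZ (80.8%) and in 23 for G sites alone under TMZ (88.5%), with the 18 among them each time. Without the shallow solvent pair the solvent shift was further from 0 in each of the 18, moving most in 3pA, from -0.59 to -0.64. The segments just outside the threshold were 5qA (-0.21 under solvent, -0.098 under TMZ and -0.21 in naked DNA), 1qB (-0.13, -0.088, -0.15) and 1qD (-0.11, -0.098, -0.12). The shared segment nearest to it was 5qB, with -0.17, -0.11 and -0.18 by bin. With library sizes taken from the other autosomes, all segment shifts moved upwards, by 0.023 to 0.036. This puts 5qB under TMZ below the threshold in size. The shared segments were not located again with these sizes.

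**Figure D1:**
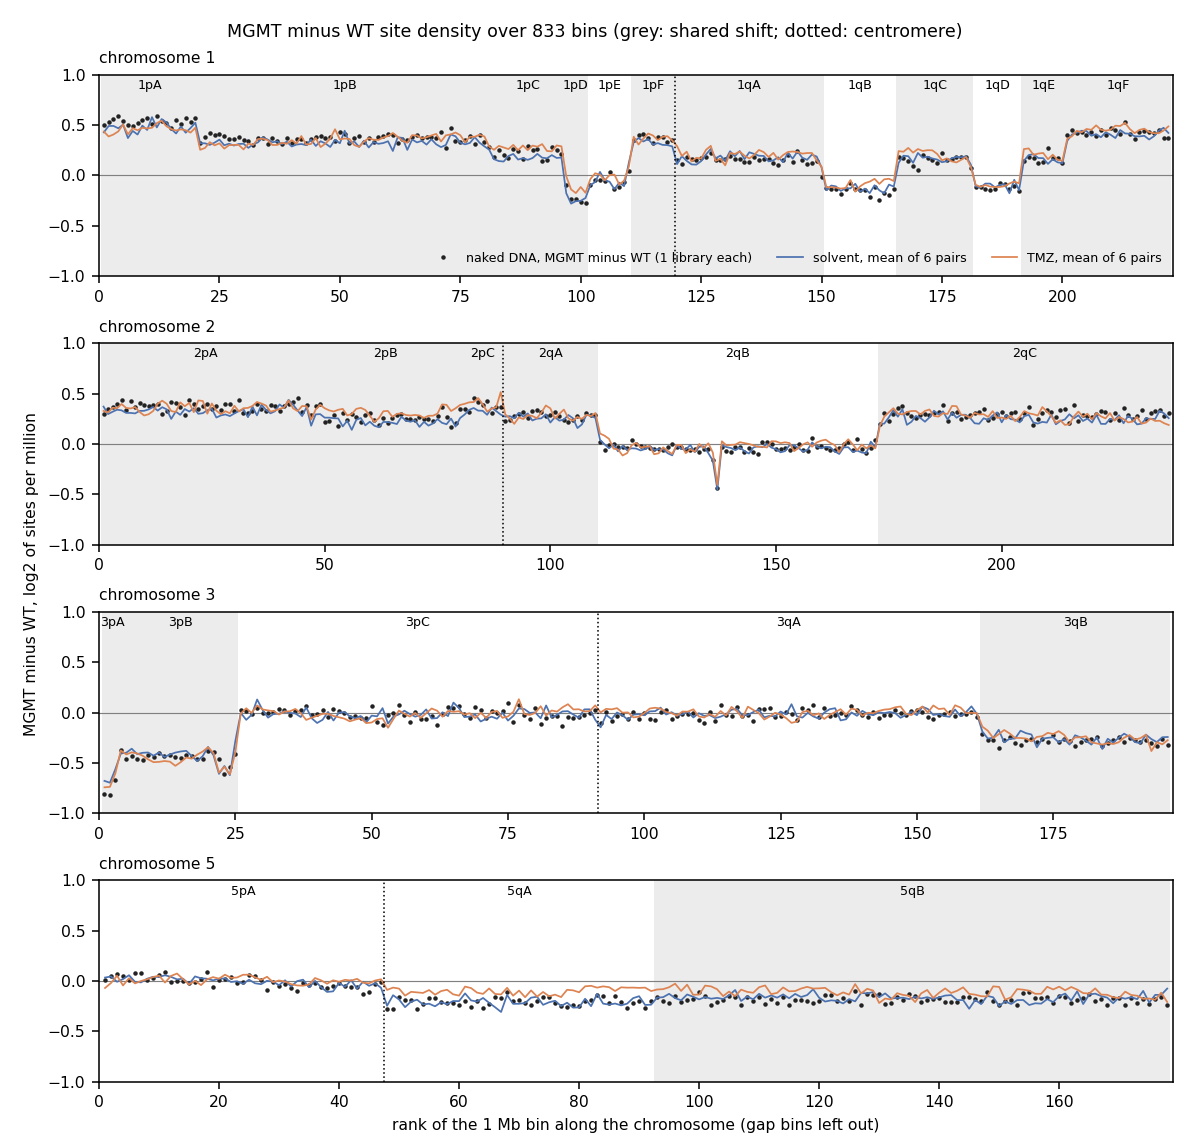
MGMT minus WT difference of each of the 833 member bins (y axis, log2 of site density) by rank of the bin along chromosomes 1, 2, 3 and 5 (x axis). Lines are means of 6 same-numbered pairs under solvent (blue) and TMZ (orange), black points are naked DNA with 1 library per line, grey blocks are the 18 segments with a shared shift, and the dotted line is the centromere. At 15 of 18 edges the 3 profiles step within 300 kb of each other, and on 5q the orange line lies above the other two.

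Chromosome 1 held 9 of the 18 segments. In 1pA (chr1:1000001-21000000) WT solvent libraries had a density of 186, 206 and 247 (sites per Mb at a library size of 1000000 sites; lowest, median and highest of 6) and MGMT solvent libraries had 263, 290 and 340. The groups did not overlap, and the 6 same-numbered pairs differed by 0.47 ± 0.093 (log2, mean ± SD, n = 6) or 1.39-fold. Under TMZ the difference was 0.45 ± 0.069 and in naked DNA 0.53. Estimated from the bases of its sites, 1pA had a GC share of 48.0%, the highest of the 26, and it also had the largest naked difference between both WT libraries (0.084).

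The remainder of 1p stepped downwards towards the centromere and rose again. In 1pB (chr1:21000001-82000000), which holds CDKN2C, a cell cycle inhibitor gene, the difference was 0.32 ± 0.050 under solvent, 0.34 ± 0.030 under TMZ and 0.36 in naked DNA. In 1pC (chr1:82000001-97000000) it was 0.17 ± 0.022, 0.28 ± 0.040 and 0.22. Among the 18, 1pD (chr1:97000001-102000000) was the sole lower segment of chromosome 1, at -0.24 ± 0.076, -0.12 ± 0.059 and -0.22. 1pD covers 5 bins and 23 protein-coding genes. Between it and 1pF lay 9 bins with a solvent difference of -0.044. 1pF (chr1:111000001-120000000), with NRAS, a signalling GTPase gene, and NOTCH2, a receptor gene, was at 0.32 ± 0.074, 0.37 ± 0.031 and 0.37.

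On 1q, 4 higher segments alternated with 2 stretches (1qB and 1qD) that were lower in MGMT and missed the threshold. The difference was 0.18 ± 0.054 under solvent in 1qA (chr1:143000001-177000000), which holds the survival gene MCL1, 0.17 ± 0.051 in 1qC (chr1:192000001-208000000) and 0.16 ± 0.061 in 1qE (chr1:218000001-227000000). Their naked DNA differences were 0.15, 0.16 and 0.16. With no score minimum the solvent difference of 1qA was 0.096, below the threshold of 0.1. MDM4, an inhibitor of p53, and PIK3C2B, a lipid kinase gene, lie in 1qC. 1qF (chr1:227000001-249000000) stood higher, at 0.41 ± 0.078 under solvent, 0.45 ± 0.053 under TMZ and 0.42 in naked DNA. It holds EXO1, an exonuclease gene of mismatch repair.

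Chromosome 2 was higher in MGMT over both ends, with a middle stretch of 62 bins near WT. The difference in 2pA (chr2:1-46000000), which holds MYCN and the receptor kinase gene ALK, was 0.33 ± 0.049 under solvent, 0.35 ± 0.021 under TMZ and 0.37 in naked DNA. In 2pB (chr2:46000001-80000000) WT solvent libraries had a density of 335, 337 and 343 and MGMT solvent libraries 378, 396 and 402. Under TMZ the WT libraries had 332, 333 and 335 and the MGMT libraries 405, 414 and 420. The WT libraries were nearly level and the MGMT libraries lay above all of them in both treatments, with differences of 0.22 ± 0.032 and 0.31 ± 0.020. MSH6, a gene of mismatch recognition, lies in 2pB.

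2pC (chr2:80000001-90000000) was at 0.33 ± 0.079 under solvent and 0.39 ± 0.030 under TMZ. On 2q, 2qA (chr2:94000001-115000000) was at 0.26 ± 0.027 and 0.28 ± 0.021, and 2qC (chr2:177000001-242000000), with PMS1 and IDH1, a metabolic enzyme gene often mutated in glioma, at 0.25 ± 0.053 and 0.27 ± 0.024. Naked DNA differed by 0.38, 0.28 and 0.29 in these 3 segments. Between 2qA and 2qC lay 2qB, at -0.050 ± 0.015 under solvent.

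Chromosome 3 was lower in MGMT at both ends. In 3pA (chr3:1-4000000) WT solvent libraries had a density of 415, 439 and 457 and MGMT solvent libraries 279, 284 and 333. The groups were far apart, at -0.59 ± 0.13 under solvent, -0.62 ± 0.067 under TMZ and -0.66 in naked DNA, where MGMT had 0.631 of the WT density. This was the largest difference of the 18 in each of the 3 kinds of library. In 3pB (chr3:4000001-25000000), which holds the tumour suppressor gene VHL, WT solvent libraries had 395, 409 and 419 and MGMT solvent libraries 293, 297 and 359. The highest MGMT value was that of the shallow library. The difference was -0.42 ± 0.099 in 6 pairs, -0.46 ± 0.019 in the 5 pairs without that library, -0.46 ± 0.019 under TMZ and -0.44 in naked DNA. In 3qB (chr3:163000001-198000000), with PIK3CA, SOX2 and TERC, it was -0.26 ± 0.025 under solvent, -0.26 ± 0.021 under TMZ and -0.28 in naked DNA.

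Chromosome 5 was lower in MGMT over the whole q arm and near WT over 5p, which holds TERT. In 5qB (chr5:96000001-182000000), with APC and PDGFRB, WT solvent libraries had a density of 389, 399 and 403 and MGMT solvent libraries 346, 353 and 375. The difference was -0.16 ± 0.054 under solvent, -0.11 ± 0.036 under TMZ and -0.18 in naked DNA. Without the shallow pair the solvent difference was -0.19 ± 0.0072 (5 pairs). In 5qA, which holds the mismatch repair gene MSH3 and missed the threshold under TMZ, it was -0.21 ± 0.050, -0.10 ± 0.050 and -0.21.

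**Figure D2:**
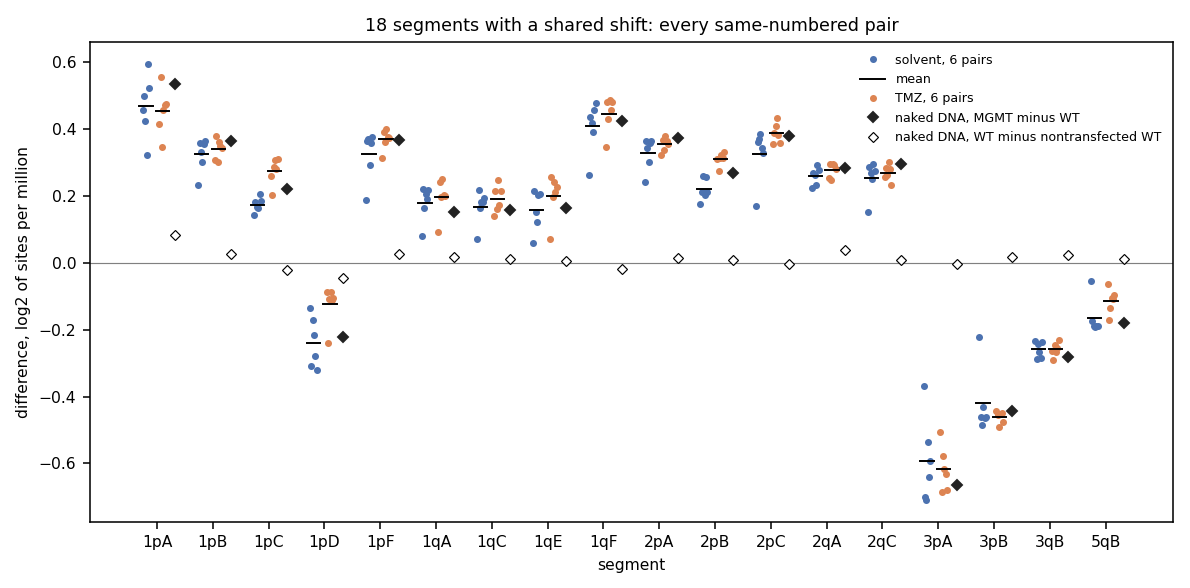
MGMT minus WT difference (y axis, log2 of site density) in each of the 18 segments (x axis): every same-numbered pair under solvent (blue, 6 pairs) and TMZ (orange, 6 pairs) with its mean (bar), naked DNA of MGMT against WT (filled diamond) and naked DNA of WT against non-transfected WT (open diamond). All pairs lie on 1 side of 0 in each segment, and the open diamonds lie between -0.046 and 0.084. In every segment but 1pA the pair nearest to 0 under solvent is replicate 1 given 1 time.

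Of the listed mismatch repair genes, MSH6, EXO1 and PMS1 lay in segments higher in MGMT, and MSH3 on 5q lay outside the shared segments. The mean of the 5 bins around MSH6 was 0.28 under solvent, 0.34 under TMZ and 0.33 in naked DNA. Around EXO1 it was 0.40, 0.46 and 0.43, and around MSH3 it was -0.23, -0.12 and -0.22. Of the listed cancer genes, MDM4, PIK3C2B, MCL1, CDKN2C, NRAS, NOTCH2, MYCN, ALK and IDH1 lay in higher segments, PIK3CA, SOX2, TERC, VHL, APC and PDGFRB in lower ones, and TERT, FHIT, BAP1 and SETD2 outside the shared segments. Over all member bins, 358 of 833 were in higher segments and 151 in lower ones. Expression was not measured.

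At 100 kb resolution 15 of 18 edges of the segments were placed within 300 kb of each other in solvent, TMZ and naked DNA, and 4 fell in the same 100 kb bin in all 3. The sharpest was on 3p at 24700001, between THRB, a thyroid hormone receptor gene, and RARB, a retinoic acid receptor gene. There the difference stepped by 0.58 under solvent, 0.59 under TMZ and 0.62 in naked DNA. In the window from 3 Mb before to 3 Mb after the 1 Mb bin boundary, the mean solvent difference was -0.57 up to this edge and 0.0033 beyond it. The other edges in 1 bin were at 110700001 on 1p, between KCNA3 and CD53, at 207600001 on 1q, inside the complement receptor gene CR1, and at 2500001 on 3p, inside CNTN4. The 1p edge at 97300001 lay inside DPYD, which encodes a pyrimidine-degrading enzyme, and the 2q edges at 115300001 and 177400001 inside DPP10 and AGPS. The edge near 82 Mb of 1p varied by 700 kb. The edges of 2pA with 2pB and of 5qA with 5qB were not settled: their places differed by 3400 and 3000 kb, and a step explained 9.44% and 9.36% of the solvent variance there.

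Within each line, solvent density was compared between the 3 Mb on each side of the nearest 1 Mb bin boundary. This boundary can lie some 100 kb bins from the edge, so these steps are smaller than those at the edge itself. At 7 of 18 edges the step was under 0.1 in size in WT and at least 0.2 in MGMT. At the boundary next to the 3p edge between THRB and RARB, density stepped by 0.029 ± 0.048 in WT (log2, mean ± SD, n = 6) and by 0.47 ± 0.079 in MGMT. At the DPYD edge it stepped by -0.045 ± 0.079 in WT and -0.46 ± 0.080 in MGMT, and at the AGPS edge by 0.045 ± 0.068 and 0.30 ± 0.10. The DPP10 edge was the sole one of the reverse kind, with 0.34 ± 0.072 in WT and 0.060 ± 0.077 in MGMT. At the edge of 1pA and 1pB both lines stepped, by 0.59 ± 0.058 in WT and 0.43 ± 0.055 in MGMT, and the GC share of the segments is 48.0% and 41.2%. A level within 1 line also moves with base composition, and its part in these steps was not tested.

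A single bin departed by at least 0.25 from its own segment in solvent, TMZ and naked DNA alike, chr2:141000001-142000000 in 2qB, at -0.45, -0.41 and -0.44. It was singled out after its value was seen. The bin lies inside LRP1B, a lipoprotein receptor gene of 1899594 bases (chr2:140231423-142131016). The lowest 200 kb, chr2:141000001-141200000, held few sites in every library. WT solvent libraries had 33.6%, 36.01% and 40.2% of the density of the rest of 2qB there (lowest, median and highest of 6) and MGMT solvent libraries 10.9%, 14.7% and 16.5%. Under TMZ WT had 30.3%, 32.1% and 34.7% and MGMT 9.24%, 13.3% and 15.4%. Naked DNA of non-transfected WT, WT and MGMT cells had 30.8%, 28.7% and 13.4%. Each MGMT library lay below each WT library, on 8 to 104 sites per MGMT cell library. In the 100 kb before it and the 600 kb after it the WT solvent median was 99.6% and the MGMT solvent median 74.0%. Under TMZ the medians there were 86.2% and 66.7%, and naked DNA of non-transfected WT, WT and MGMT cells had 83.9%, 81.0% and 59.4%. WT was thus at the mean of the rest of the segment under solvent alone. From 142000001 to 143000000, however, the 100 kb bins of WT had 1.11 to 1.47 times that mean under solvent. Next to these bins the WT median was lower under solvent too.

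**Figure D3:**
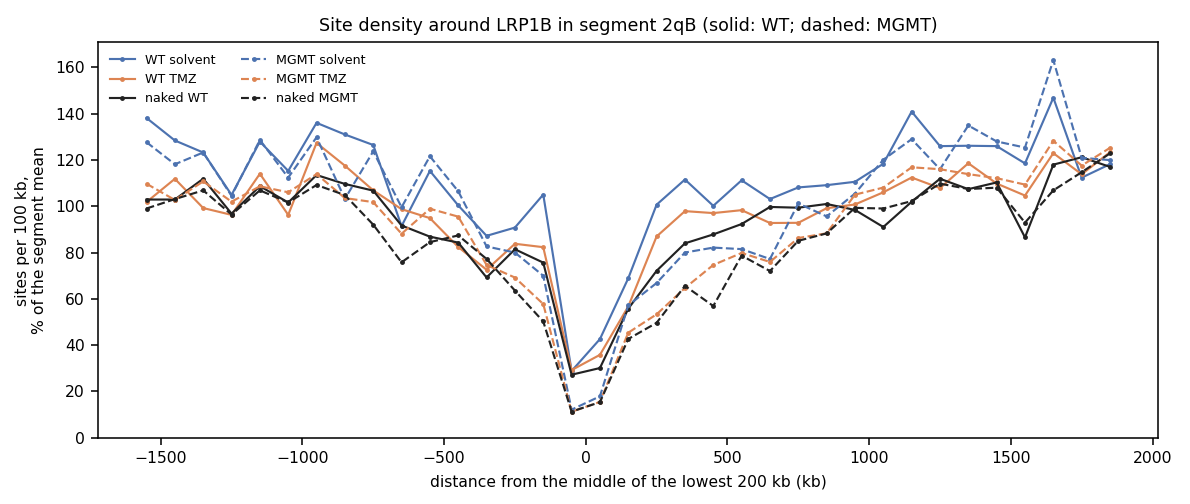
Sites per 100 kb as a percentage of the mean over the rest of segment 2qB (y axis, from 0) by distance from the middle of the lowest 200 kb (x axis, kb), sums of 6 libraries for solvent and TMZ and 1 library for naked DNA, solid lines for WT and dashed lines for MGMT. All lines fall in the middle, to 27.2% to 42.6% of the segment mean in WT and 11.3% to 17.9% in MGMT, and each dashed line stays below the solid line of its colour for the next 600 kb to the right.

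How G sites under TMZ ran beside the all-base solvent difference is a description too, because that difference chose the members and G sites are part of the TMZ sites that did. The solvent difference stands in for the amount of DNA, which was not measured. The G-site difference under TMZ set against the all-base solvent difference had a slope of 1.01 through the origin over 833 bins (Pearson's r 0.958), after subtraction of the median of the other autosomes. The 2 axes come from different libraries of the same 2 lines, and neighbouring bins share a segment, so no p is given. Without the shallow solvent pair the slope was 0.948, against naked DNA it was 0.926, and against sites at A, C and T in the same TMZ libraries 0.965. In the 31 bins with a solvent difference of at most -0.3 the median G difference under TMZ was -0.43, and in the 149 bins above 0.3 it was 0.37. In the 188 bins between -0.3 and -0.1, most of which lie on 5q, the solvent median was -0.18 and the G median -0.092. In the 210 bins between 0.1 and 0.3 they were 0.22 and 0.26, and in the 255 bins between these classes -0.026 and -0.025.

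Each cell library was also set on the naked DNA difference, as a share that is 0 for a library like the other WT libraries and 1 for one that carries the whole difference. The 18 segments used for it were kept for shifts of shared sign, so this is a description. WT libraries had -0.077, -0.024 and 0.085 under solvent (lowest, median and highest of 6) and -0.15, 0.0019 and 0.098 under TMZ. MGMT libraries had 0.70, 0.94 and 0.98 under solvent and 0.86, 0.96 and 1.04 under TMZ. The lines did not overlap in either treatment. The lowest MGMT value in each treatment was replicate 1 given 1 time, the pair of libraries with the largest overlap of sites.

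**Figure D4:**
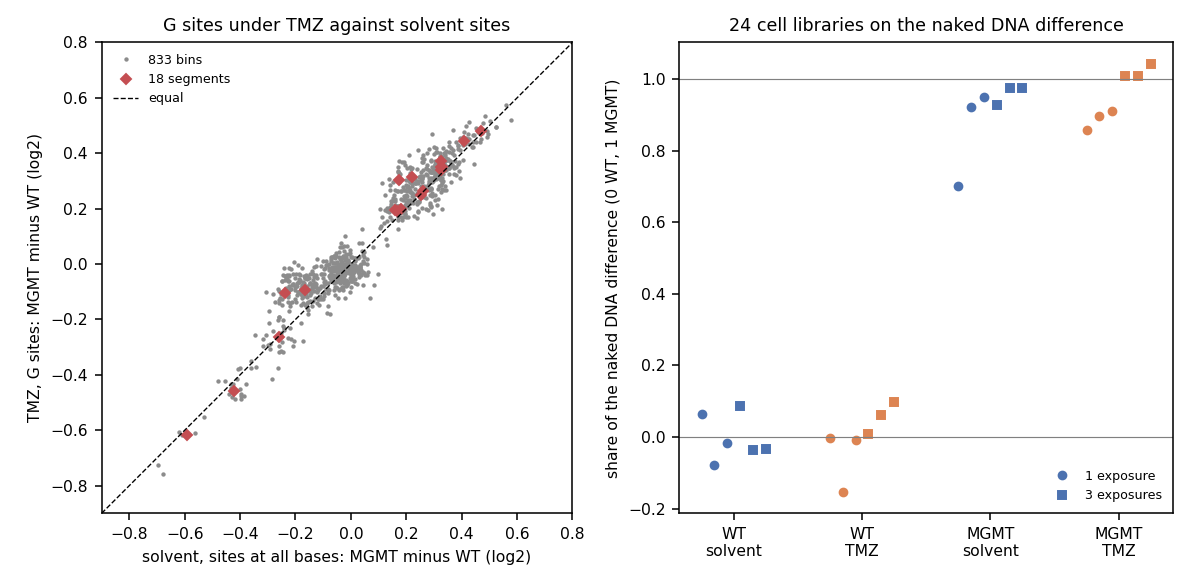
Left: TMZ G-site difference against the solvent all-base difference (both log2, MGMT minus WT) for 833 bins (grey) and 18 segments (red), with the line of equality; bins with solvent values near -0.2 lie above it. Right: share of the naked DNA difference that each of 24 cell libraries carries (y axis, no unit), 6 per line and treatment (x axis), circles for 1 exposure and squares for 3; WT libraries lie between -0.15 and 0.098 and MGMT libraries between 0.70 and 1.04.

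The direct test was the ratio of G sites to sites at other bases, in which the amount of DNA cancels. Sites at other bases come from the same immunoprecipitated libraries. Their share in 1pA also rose under TMZ, by 0.25 in WT and 0.23 in MGMT (log2). Whether they follow lesions was not tested, so this ratio cannot show equal lesions per copy. Each library was centred on its median autosomal bin, or on the other autosomes by segment. A difference of the lines over the whole genome is thereby taken out. Before centring, G made up less of all sites in MGMT than in WT in each same-numbered TMZ pair. It was 37.3% against 44.8% in replicate 1 given 1 time and 61.6% against 64.1% in replicate 2 given 3 times. After centring, 0 of 833 member bins differed between MGMT and WT under TMZ in limma's fit (0% of all 2839). Of the member bins, 16 had an unadjusted p under 0.05, 1.83% of all bins having one. Member estimates ran from -0.19 to 0.22 with a median SE of 0.067. By segment, 0 of 18 were called when line labels were permuted among libraries of the same exposure number (exact, two-sided; smallest adjusted p 0.0675), and 0 of all 26 (smallest 0.065). A lone segment whose libraries separate fully cannot go below an adjusted p of 0.09 over 18 segments. No segment could thus be called on its own, only together with others. Of the 18, 6 had an unadjusted p under 0.05. Differences ran from -0.038 to 0.061 on the log2 scale, with a median of 0.0019, beside all-base shifts of -0.62 to 0.45 under TMZ. The largest difference of the 26 was in 5qA, at 0.077 (exact p = 0.005, adjusted 0.065 over 26), which is not among the 18 because its TMZ shift missed the threshold, and G sites are part of that shift. In 1pB it was -0.0013 ± 0.011 (n = 6 pairs), in 1qF 0.0017 ± 0.024, in 3pB 0.0029 ± 0.023 and in 3qB 0.0022 ± 0.035. The segments with the largest shifts downwards and upwards were less precise, with 0.030 ± 0.10 in 3pA and 0.019 ± 0.054 in 1pA.

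Over all 26 segments 8 had an unadjusted p under 0.05, in both directions: 5qA, 3qA (-0.028, exact p = 0.03) and the 6 of the 18. The ratio was higher in MGMT in 1pC (0.061 ± 0.043), 1pD (0.053 ± 0.025) and 5qB (0.041 ± 0.0073), in 6 of 6 pairs each, and lower in 1pF (-0.038 ± 0.033), 2qA (-0.028 ± 0.038) and 2qC (-0.027 ± 0.033), in 5 of 6 pairs each. Without the TMZ pair of replicate 1 given 1 time the values in 2qA and 2qC were -0.012 and -0.016. Then 3 of the 18 had an unadjusted p under 0.05: 5qB, 2qC and 2pB (0.028), which is not among the 6. In naked DNA the 5qB ratio was -0.049 in WT and -0.062 in MGMT. In 5qB under TMZ the 6 MGMT libraries lay above the 6 WT libraries, and the exact p was 0.005, the smallest that 400 arrangements can give, with an adjusted p of 0.0675. With a minimum score of 40 2 segments were called, with an adjusted p of 0.045.

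**Figure D5:**
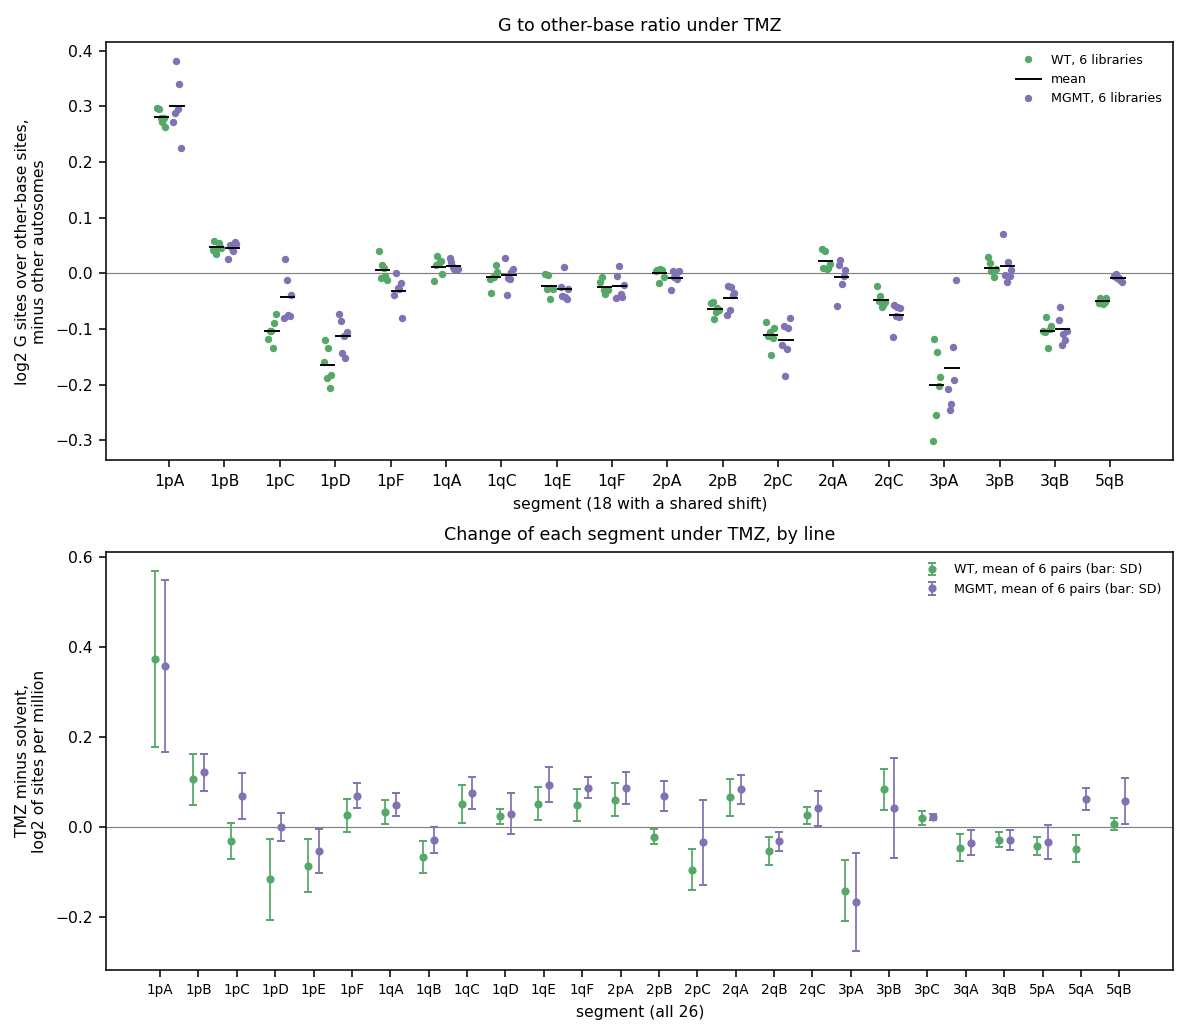
Top: log2 ratio of G sites to other-base sites under TMZ minus that of the other autosomes (y axis) in each of the 18 segments (x axis), 6 WT (green) and 6 MGMT (purple) libraries with their mean (bar). Bottom: TMZ minus solvent difference (y axis, log2 of site density) in all 26 segments for each line, mean of 6 pairs with SD. In the top panel the lines overlap in most segments and part in 5qB; in the bottom panel 1pA is highest in both lines and the lines part in 1pC, 2pB and 5qA.

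The size of the shift was set against treatment, in a test of the difference between the TMZ and solvent shifts within exposure number. Over all 26 segments 0 were called, and in limma's fit over bins 0% of all bins were called (50 of 833 member bins had an unadjusted p under 0.05, and 102 of all bins, 3.59%). The values in 1pC, larger under TMZ by 0.10, and in 2pB, larger by 0.090, had an adjusted p of 0.065 each (exact permutation test). Adjusted over the 18 shared segments alone these 2 were called (adjusted exact p = 0.045 for each), but the 18 were kept for the size of both shifts, so that call is no independent evidence. WT density in 2pB changed by -0.022 ± 0.017 from solvent to TMZ and MGMT density by 0.069 ± 0.034 (log2, n = 6 pairs each), and 0 of 6 WT pairs and 6 of 6 MGMT pairs were higher under TMZ. In 1pC the changes were -0.032 ± 0.040 and 0.069 ± 0.051. At A, C and T sites alone the solvent and TMZ shifts lay closer together than over all bases. They were 0.19 and 0.25 in 1pC, and 0.24 and 0.30 in 2pB. Without the shallow solvent pair the differences were 0.095 in 1pC and 0.081 in 2pB (exact p = 0.01 each, adjusted 0.060). In 5qB it was 0.073, with the same p and adjusted p, and in 1pD 0.13 (exact p = 0.015, adjusted 0.0675). 5qB and 1pD were lower in MGMT, so a value above 0 there is a smaller shift under TMZ than under solvent. These 4 segments had an unadjusted p under 0.05, and 0 of 18 were called. When replicate numbers were taken as blocks, 0 were called (smallest exact adjusted p = 0.1125, shared by 1pC, 2pB, 1pD, 1qE and 2pC). The block test allows no p below 0.03125, so at least 12 of 18 segments would have to reach it for any call, and the lost call says nothing of the size. In 5 of the 18 segments 6 of 6 same-numbered differences were above 0: 1pC, 2pB, 1pD, 1qE and 2pC. Outside the 18 the same held in 5qA and 2qB, so this was not particular to the shared segments. The largest value of the 18 was that of 1pD, at 0.12 (unadjusted exact permutation p = 0.03, adjusted 0.18). In 5qA, outside the 18, the difference was 0.11 (unadjusted exact permutation p = 0.01, adjusted 0.087 over 26), with WT at -0.048 ± 0.031 and MGMT at 0.062 ± 0.024.

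With both lines pooled, the segments also took other shares of all sites under TMZ than under solvent. This passed the exact permutation test in 16 of 18 segments, 12 upwards and 4 downwards (1pD, 2pC, 3pA and 3qB). The counts were the same without the shallow solvent pair, but 11 segments were called without replicate 2 and 10 without replicate 3. Over all 26 segments 23 were called (88.5%), 14 upwards (53.8%) and 9 downwards (34.6%), so the share called among the 18 is near that of all segments. The 5 further segments that fell were 1pE, 1qB, 2qB, 3qA and 5pA, and the 2 that rose 1qD and 3pC. 1pA rose most, by 0.37, with 0.37 ± 0.20 in WT and 0.36 ± 0.19 in MGMT (n = 6 pairs, 6 of 6 higher in each, adjusted p = 0.000338). 3pA fell by 0.15 (exact permutation test, adjusted p = 0.000315). Taken by line, 2 of the called segments had a TMZ minus solvent value near 0 in 1 line: 1pD had -0.12 ± 0.090 in WT and -0.00066 ± 0.031 in MGMT, and 5qB had 0.0062 ± 0.014 and 0.058 ± 0.051 (n = 6 pairs each). The difference between the lines was not called in either. Over the 26 segments the change followed the GC share of sites (r 0.947, n = 26, a description over segments of the same 24 libraries). With sites at A, C and T alone 9 of the 18 segments were called, 5 upwards and 4 downwards. For these sites no adjustment over all 26 was made. Outside the 18, 1pE, 1qB, 2qB, 3qA and 5pA fell, with an unadjusted exact permutation p from 0.000525 to 0.027. In 1qD, 3pC and 5qA this p was 0.43 to 0.69.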

How the data were processed

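The authors deposited 1 list per library with a chromosome, a position, a strand, a base and a score (0 to 42), per the files themselves; the score is not a number of reads. The submitters' processing notes name GRCh38 or hg38, Trimmomatic 0.38 and 0.39, cutadapt, Bowtie2 2.3.5.1, GATK 4.2.0.0, SAMtools 1.12, bedtools 2.29.2 and FastQC 0.11.9. Distinct sites with a deposited score of at least 30 were counted per 1 Mb bin (Python 3.11.15, numpy 2.4.6). Positions are counted from 1.

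Library sizes were scaled by the trimmed mean of M values, leaving out 30% of the ratios and 5% of the mean levels at each end. Bins with 10 or more sites in 3 or more libraries were fitted with limma 3.58.1 (voom, 8 group means, R 4.3.3, Benjamini-Hochberg adjustment) and tested on simulated data. Because the lists hold distinct sites, no model for read counts was used. Segments came from least-squares partitioning of the solvent difference per arm (penalty 8 times the noise variance times the log of the number of bins, at least 4 bins), and neighbours with shared shifts within 0.1 were joined. Segment tests were exact permutations, adjusted over 18 segments. Same-numbered libraries of the lines deviated together (r from 0.017 to 0.78, above 0.1 in 7 of 12 pairs). As this did not hold for every pair, the numbers were not taken to pair them in the main bin fits and the G ratio test. The test of the TMZ minus solvent shift did take same-numbered MGMT minus WT differences as its units. Other differences are printed over same-numbered pairs for their spread alone. P-values measure the spread between the labelled replicates.

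Named genes are the nearest protein-coding genes at segment edges and lists of mismatch repair and cancer genes, some of which are not reported here. Members and lists were chosen with earlier results of these data known. Alternatives were the score minimum, the bases used, sizes, filter, GC correction, replicate block, segmentation settings and leaving out replicates.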

Additional observations from a re-analysis of the deposited data

Results flagged for a closer look

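Among the 36 sets of 6 same-numbered pairs (18 segments under solvent and under TMZ), 9 held a pair that stood apart by Dixon's criterion. Chance alone meets it in about 1 of 20 independent sets. The sets share the same 24 cell libraries and are not independent, so 1 odd pair can be flagged in many of them. In 7 of the 9 it was replicate 1 given 1 time. Under solvent this pair had an MGMT minus WT difference (log2) of 0.070 in 1qC, 0.17 in 2pC, 0.15 in 2qC, -0.22 in 3pB and -0.054 in 5qB. Under TMZ it had 0.092 in 1qA and 0.072 in 1qE. Each of these 7 was nearer to 0 than the other 5 pairs of its segment. The other 2 were replicate 2 given TMZ 1 time, at -0.24 in 1pD and 0.27 in 2pB.

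The MGMT minus WT difference was larger under TMZ than under solvent in 1pC, by 0.10, and in 2pB, by 0.090, in the test of that difference over the 18 shared segments. This count of 2 became 0 over all 26 segments, with no score minimum and without the shallow solvent pair. It was also 0 with the replicate block and without any 1 replicate number, and nothing is read from these zeros. The block allows no p below 0.03125, so most segments would have to reach it for any call. Without 1 number no p below 0.0556 is possible.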

How the results depend on the processing

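Total counts of member bins called stayed within 1.5 times of the main count under every alternative run: 445 to 598 under solvent (578 in the main analysis) and 327 to 608 under TMZ (479). With GC correction and the replicate block 608 were called under TMZ, 358 higher and 250 lower, against 343 and 136. Lower calls under TMZ were also 213 with A, C and T sites, 201 with the block, 99 with sizes from the other autosomes, 68 without replicate 2 and 62 without replicate 3. With the replicate block alone 589 bins were called under solvent, 559 under TMZ and 0 for the G ratio. By segment the block called 0 for the G ratio, where with no p below 0.03125 it could call none unless 12 of 18 reached it, and 16 for the change under TMZ. Of 12 MGMT libraries, 9 correlated best with the WT library of their own number. The number of shared segments was 14 to 20, and the slope of the TMZ G difference 0.926 to 1.03.

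With a minimum score of 40, 2 segments differed in G ratio rather than 0. The 2 segments whose shift differed between treatments became 0 with no score minimum, 0 over all 26 segments, 0 with the replicate block (smallest adjusted p 0.1125), 0 without the shallow solvent pair, and 0 to 0 without 1 replicate number, where 36 arrangements allow no p below 0.0556. The change under TMZ was called in 10 to 16 of 18 segments without 1 replicate number (10 without replicate 3) and in 9 with A, C and T sites. Analyses over all 26 segments, of that shift with the block, of A, C and T sites for that change and without the shallow pair were added after the data were seen. Sizes taken from the other autosomes moved segment shifts by 0.023 to 0.036, and no score minimum by -0.084 to 0.072. The latter took 1qA under solvent from 0.18 to 0.096.

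The shallowest solvent library limits the precision, and copy number was not measured by another assay.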
